A study of Mus musculus with 33 samples.

Results

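This report describes where the pluripotency transcription factors Oct4, Sox2 and Nanog met on the DNA of wild-type (WT) mouse embryonic stem cells (mESC). The members are the summit lists of the 3 WT mESC ChIP-seq libraries for these factors, out of 33 samples in the series, with 12898 summits for Oct4, 5190 for Sox2 and 2390 for Nanog. A summit is the base at which the pileup of sequenced fragments under a peak was highest. Summits of the 3 lists that lay within 100 bp of one another were joined, which gave 15496 sites. Of these, 1308 held all 3 factors (8.44%, called OSN sites), 2366 held a pair of factors and 11822 held 1 factor. The pairs were Oct4+Sox2 at 1833 sites, Oct4+Nanog at 421 and Sox2+Nanog at 112, and the sites of 1 factor were Oct4 at 9336, Sox2 at 1937 and Nanog at 549.

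The cells were E14, an established mESC line, unmodified and grown in serum medium with the cytokine LIF on gelatin or on mouse embryonic fibroblasts. The wider study compared them with cells that lack Uhrf1, a protein that recruits the maintenance DNA methyltransferase to replicated DNA, and with embryoid bodies. Each factor was immunoprecipitated separately and has 1 library, so differences between factors or classes have no replicate spread to be held against. A joined site says that both proteins were found at that place in the population, not that they sat on the same DNA molecule. The 95% intervals in brackets count sites only: shares have Wilson limits and differences have Newcombe limits. Differences weighted over groups of Oct4 height have normal-approximation limits instead. The bracket of a height ratio divides opposite 95% limits of its medians, so it is not itself a 95% interval. None of these includes biological or technical variation.

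Oct4, encoded by Pou5f1, and Sox2 are DNA-binding proteins of the POU and HMG-box families that can bind side by side on a joint element, a Sox motif next to an octamer. Nanog is a homeodomain protein that interacts with both. Together they are known to occupy enhancers of genes that keep stem cells undifferentiated, their own genes included.

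Some of the sites the results turn on are shown first, 5' to 3' in the mm9 (NCBIM37) build, in lower case with capitals for a motif. The first 4 belong to listed stem cell genes and had heights above the 95th percentile of all 3 lists, as did 1 more at Rif1. They are the OSN sites of the genes for Oct4 (Pou5f1), the Nodal inhibitor Lefty1, the zinc-finger protein Rex1 (Zfp42) and the inhibitor of bHLH factors Id3. The windows are chr17:35640903-35641102 (minus strand), chr1:182854952-182855151, chr8:44406061-44406260 and chr4:135702753-135702952 (plus strand), and all 4 were intergenic. The capitals are a stretch within 3 mismatches of the joint Sox-octamer element (CATTGT, any base, ATGCAAAT) at Pou5f1 and Id3, and a Sox motif on the opposite strand at Lefty1, while the Zfp42 window held none of the Sox, octamer or Nanog motifs searched.
Pou5f1 site: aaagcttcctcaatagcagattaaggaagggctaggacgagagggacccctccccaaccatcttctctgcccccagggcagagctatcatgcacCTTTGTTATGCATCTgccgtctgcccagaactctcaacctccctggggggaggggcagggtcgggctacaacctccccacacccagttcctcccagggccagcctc
Lefty1 site: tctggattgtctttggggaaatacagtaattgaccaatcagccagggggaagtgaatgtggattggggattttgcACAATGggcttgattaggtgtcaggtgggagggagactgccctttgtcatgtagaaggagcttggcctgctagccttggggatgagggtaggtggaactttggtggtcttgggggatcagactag
Zfp42 site: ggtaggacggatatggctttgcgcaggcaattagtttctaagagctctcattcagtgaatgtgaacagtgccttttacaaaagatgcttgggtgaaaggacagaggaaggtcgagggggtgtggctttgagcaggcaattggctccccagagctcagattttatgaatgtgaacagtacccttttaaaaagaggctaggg
Id3 site: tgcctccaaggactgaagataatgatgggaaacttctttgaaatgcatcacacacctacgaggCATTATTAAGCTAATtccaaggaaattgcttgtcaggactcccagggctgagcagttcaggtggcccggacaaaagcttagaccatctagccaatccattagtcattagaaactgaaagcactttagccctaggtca

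The next 2 belong to the 5 OSN sites with the largest lowest-of-3 height percentile, and are shown because these are not at genes of the stem cell network. The windows at chr2:181653375-181653574 (closest gene Polr3k) and chr3:8245874-8246073 (closest gene Stmn2) share a run of 76 bases on opposite strands, and their capitals mark the Nanog motif CCATTA on either strand.
chr2 site: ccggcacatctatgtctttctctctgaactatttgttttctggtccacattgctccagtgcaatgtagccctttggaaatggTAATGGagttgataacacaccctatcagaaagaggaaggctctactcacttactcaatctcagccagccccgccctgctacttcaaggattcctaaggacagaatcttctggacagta
chr3 site: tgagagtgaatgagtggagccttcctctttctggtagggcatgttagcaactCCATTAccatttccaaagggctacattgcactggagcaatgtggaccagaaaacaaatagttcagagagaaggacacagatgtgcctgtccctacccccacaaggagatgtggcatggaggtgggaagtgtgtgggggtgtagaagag

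The last 3 were each among the 2 tallest sites of 1 factor. They are chr17:39981436-39981635 (Oct4 only), chr16:11144107-11144306 (Sox2 only) and chr9:3017102-3017161 (Nanog only), and they hold no motif in capitals. The G+C content was 70% in the first window and 78.5% in the second.
Oct4-only site: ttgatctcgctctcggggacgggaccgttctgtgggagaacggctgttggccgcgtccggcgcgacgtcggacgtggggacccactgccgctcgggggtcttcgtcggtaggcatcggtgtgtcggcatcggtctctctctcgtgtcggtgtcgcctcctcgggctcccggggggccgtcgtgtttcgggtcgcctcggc
Sox2-only site: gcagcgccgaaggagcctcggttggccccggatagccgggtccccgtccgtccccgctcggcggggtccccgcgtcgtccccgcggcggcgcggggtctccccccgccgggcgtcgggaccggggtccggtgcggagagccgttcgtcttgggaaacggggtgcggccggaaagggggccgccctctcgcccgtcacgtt
Nanog-only site: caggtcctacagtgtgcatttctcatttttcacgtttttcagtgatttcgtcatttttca

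The lists differed in length and in height. Oct4 heights ran from 11 to 168 with a median of 37, Sox2 heights from 10 to 609 with a median of 22 and Nanog heights from 9 to 112 with a median of 21. It is not stated whether these heights were scaled to sequencing depth, so they are compared only within a list, and read totals were not used here. Of the 15496 sites, 311 lay on sequences that the reference used here does not hold and have no gene, mark or sequence values, which leaves 15185 placed sites. An H3K4me3 domain lay within 2 kb of the start of all 8 stem cell marker genes checked, with H3K27me3 also present at Pou5f1 and Sox2. Of 8 fibroblast marker genes, 6 had both marks, Fn1 had H3K4me3 alone and Col3a1 had neither, and the share of feeder cells in these samples was not tested.

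Repeated DNA took up a large part of the sites of 1 factor. A site was called repeated when the 31-base words of its 200 bp window occurred at a median of more than 1 place in the assembly, and single copy otherwise. This held for 4994 of the placed sites (32.9%), but for 124 of 1304 OSN sites (9.51%, 8.03 to 11.2) and for 44.3% of Oct4-only sites (43.3 to 45.4). The share was 15.8% at Oct4+Sox2, 7.47% at Oct4+Nanog, 12.6% at Sox2+Nanog, 17.7% at Sox2-only and 29.8% at Nanog-only sites. Reads that fit several places were kept at 1 place, so a summit in a repeat cannot be assigned to that copy. Several comparisons between classes are therefore given both for all placed sites and for single-copy sites.

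Repeat families recurred among the repeated Oct4-only windows. Of these 4056 windows, out of 9148 Oct4-only windows in all, 1001 on 20 chromosomes (24.7% of the 4056) held the word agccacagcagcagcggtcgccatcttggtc, at a median Oct4 height of 24. A second word, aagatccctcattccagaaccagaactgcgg, was in 252 and another, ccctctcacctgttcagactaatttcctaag, in 240. H3K9me3, a mark of heterochromatin, covered 55.0%, 69.0% and 57.9% of these 3 groups, and H3K4me3 covered 1.90%, 3.97% and 5.42%. The octamer ATGCAAAT was in 1 of the 1001 windows and in none of the other two groups. These groups are only part of the repeated Oct4-only windows. Over all repeated sites, the octamer share of OSN minus Oct4-only windows was -9.13 points (-10.3 to -5.40). The octamer was thus not absent from the repeated Oct4-only windows as a whole.

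The question of the comparison is how far the 3 factors shared their sites. In the full lists Nanog, the shortest, shared most: 69.7% of its summits had an Oct4 summit within 100 bp (67.8 to 71.5) and 57.8% a Sox2 summit (55.8 to 59.7). Of Sox2 summits, 60.1% had Oct4 (58.7 to 61.4) and 26.6% had Nanog (25.4 to 27.8). Of Oct4 summits, the longest list, 24.2% had Sox2 (23.4 to 24.9) and 12.9% had Nanog (12.3 to 13.5). The lists differed in length, and with each list shortened to its 2390 tallest summits Oct4 and Sox2 shared 53.3%, Sox2 and Nanog 46.6% and Oct4 and Nanog 39.0%. At equal length Nanog thus no longer shared most. The 100 bp around the summits of a list covered between 0.018% and 0.096% of the genome.

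Where summits met, they met closely. Within joined sites the median distance was 26 bp between Oct4 and Sox2 (3141 sites), 25 bp between Oct4 and Nanog (1729 sites) and 28 bp between Sox2 and Nanog (1420 sites). The span from the first to the last summit of an OSN site had a median of 45 bp and reached 192 bp, since summits are joined in chains. In 732 OSN sites (56.0%) the 3 summits lay within 50 bp, and in 1181 every pair lay within 100 bp.

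**Figure D1:**
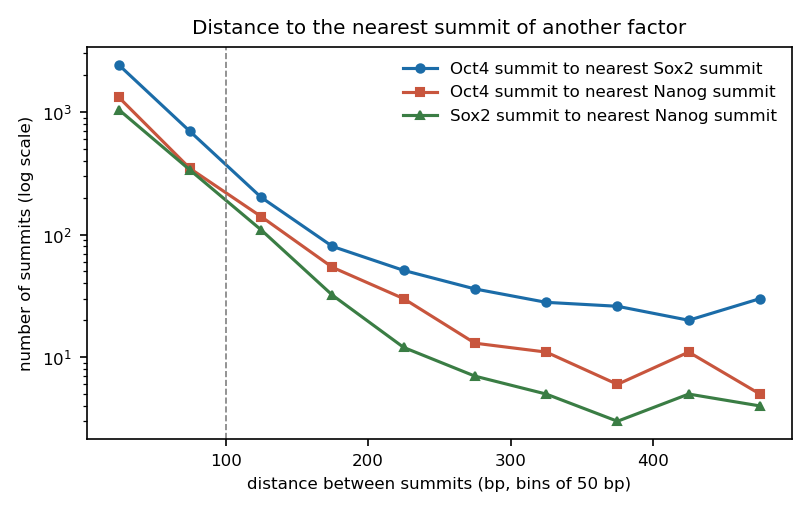
Number of summits of the first factor (log axis) by distance to the nearest summit of the second, in bins of 50 bp, with the 100 bp joining distance as a dashed line. The number of Oct4 summits near Sox2 dropped from 2423 within 50 bp to 694 between 51 and 100 bp and 201 between 101 and 150 bp, and was 30 between 451 and 500 bp.

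Summits just inside and just outside the joining distance formed a continuous series. Oct4 summits with Sox2 at 51 to 100 bp had a median height of 50, and those with Sox2 at 101 to 150 bp one of 42. For Oct4 and Nanog there were 346 and 140 summits in these bins, and for Sox2 and Nanog 336 and 109. The genes Klf4 and Fat1 give examples from just outside. Near Klf4, a Kruppel-like factor of the naive network, a Nanog summit of height 33 lay just beyond 100 bp of an Oct4+Sox2 site of heights 110 and 51. In an intron of Fat1, a cadherin, a Nanog summit of height 61 lay just beyond 100 bp of an Oct4+Sox2 site of heights 132 and 101. These 2 cases were chosen after their values were seen.

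The presence of a pair went with the presence of the third factor. Nanog was found at 41.6% of Oct4 sites with Sox2 (39.9 to 43.4) and at 4.31% of Oct4 sites without it (3.93 to 4.74), a difference of 37.3 percentage points (35.6 to 39.1). Sox2 was at 75.7% of Oct4 sites with Nanog and at 16.4% of those without. Oct4 was at 92.1% of Sox2 sites with Nanog and at 48.6% of Sox2 sites without it, and this left only 112 sites of Sox2 and Nanog without Oct4. In single-copy sites the 3 differences were 36.4, 52.2 and 42.7 points.

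OSN sites were the tallest class in each list. The median Oct4 height was 71 at OSN sites, 50 at both Oct4+Sox2 and Oct4+Nanog sites and 32 at Oct4-only sites. The ratio of OSN to Oct4-only medians was 2.22 (2.16 to 2.28), and 1.87 in single-copy sites, where the Oct4-only median was 38. The median Sox2 height was 34 at OSN, 31 at Sox2+Nanog, 23 at Oct4+Sox2 and 16 at Sox2-only sites, with the same ratio of 2.12 for all and for single-copy sites. Nanog heights differed less, with medians of 23, 20, 21.5 and 18 at OSN, Oct4+Nanog, Sox2+Nanog and Nanog-only sites and a ratio of 1.28 (1.22 to 1.41). With each list shortened to its 2390 tallest summits, the ratio was 1.25 (1.21 to 1.30) for Oct4, 1.5 for Sox2 and 1.53 for Nanog. The ranges overlapped in every list, since OSN sites had Oct4 heights from 18 to 168 and Oct4-only sites from 11 to 161.

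**Figure D2:**
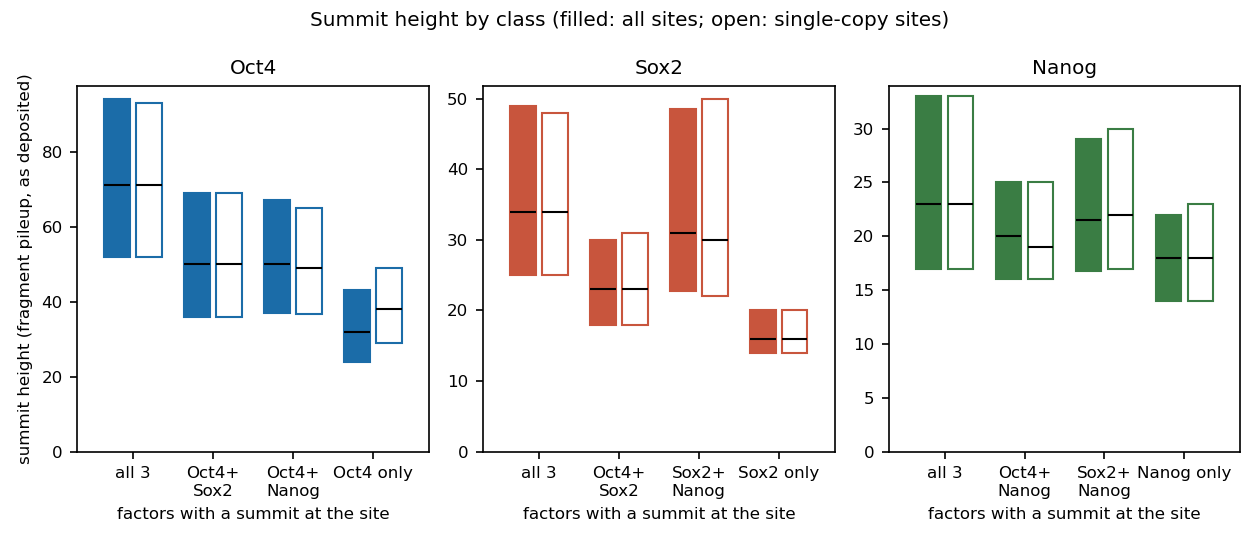
Summit height (fragment pileup as deposited) by class in each factor's list, with the line at the median and the box from the lower to the upper quartile, filled for all sites and open for single-copy sites. OSN sites, at the left of each panel, have the highest medians, 71 for Oct4, 34 for Sox2 and 23 for Nanog.

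The share of joined summits rose with height. When Oct4 summits were split into 5 equal groups by height, Sox2 was present at 4.69% of the lowest and 60.9% of the tallest group, Nanog at 0.775% and 39.2%, and both at 0.349% and 33.6%. Even so, 33.5% of the tallest group had neither. Repeated windows made up 65.1% of the lowest and 13.4% of the tallest group, and within single-copy sites the share with Sox2 went from 14.9% to 66.6%. Of Sox2 summits, the share with Oct4 went from 21.4% through 46.4%, 68.9% and 83.0% to 82.9%, and the share with Nanog from 2.50% to 60.6%. Nanog summits were already joined with Oct4 at 59.0% in the lowest group, against 86.0% in the tallest, and the share of Nanog summits alone went from 36.0% to 9.0%.

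**Figure D3:**
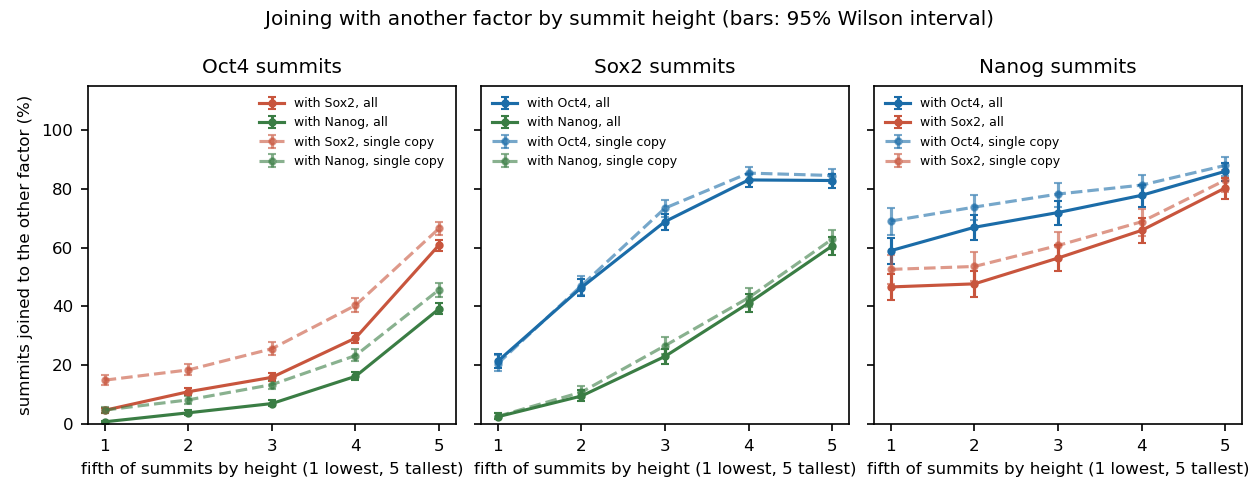
Share of summits joined to each other factor (vertical axis, percent, bars are Wilson 95% intervals) in 5 equal groups of the factor's own summit height, for all sites (solid) and single-copy sites (dashed). All lines end higher than they start, and the share of Sox2 summits with Oct4 is level from the fourth to the fifth group (83.0% and 82.9%).

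Heights of different factors at the same site went together to unequal degrees. As a description across sites, Spearman's rho was 0.664 for Oct4 and Sox2 (3141 sites), 0.563 for Sox2 and Nanog (1420 sites) and 0.439 for Oct4 and Nanog (1729 sites). These points share local copy number and mappability, and in single-copy sites the values were 0.681, 0.552 and 0.424.

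The tallest OSN sites were not those of the stem cell network. Ranked by the lowest of the 3 height percentiles, the first was on chromosome 15 at 74917250, an intergenic place whose closest gene is Ly6c2, with heights of 167 for Oct4, 577 for Sox2 and 105 for Nanog and 2 copies in the assembly. The related pair on chromosomes 2 and 3 shown above had heights of 139, 220 and 95 and of 147, 188 and 92, and lay in H3K9me3 domains without H3K4me3. Single-copy sites that came next were in an intron of Lmx1b (123, 108 and 69), a LIM-homeodomain gene, and near Axin2 (143, 417 and 65), which encodes an inhibitor of Wnt signalling.

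The tallest sites of 1 factor lay away from the stem cell genes too. The tallest Oct4-only summit, of height 161 on chromosome 17 at 39981536, lay close to the tallest Sox2 summit of the whole list, at a Sox2+Nanog site with heights of 609 and 77. Both windows had 1 copy in the assembly, lay in an H3K9me3 domain and were far from any coding gene (364018 bp and 363479 bp from Pgk2). Copies outside the assembly were not counted, here or in the single-copy class, so 1 copy does not show that a sequence is unique in the genome. The Sox2-only summit shown above had a height of 335 in an intron of Txndc11, in a window with 3 copies. The tallest Nanog-only summit had a height of 112 beside Gm10719, in an Uhrf1 window, and its sequence had a median of 33.5 copies. Both of these windows were thus repeated, and their summits cannot be assigned to these places.

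Many genes known for pluripotency were the closest gene of an OSN site. A gene was called a target when it was the closest protein-coding gene to a site, which says nothing of regulation. Of 22380 genes, 1123 (5.02%) were targets of an OSN site and 7248 (32.4%) of any site. Of the 3 core genes, Pou5f1 and Sox2 were OSN targets, and of 13 genes of the naive network 10 were. Targets also included 12 of 17 genes of the LIF, Nodal, BMP and FGF pathways, 7 of 18 chromatin and RNA regulators of stem cells and 4 of 19 regulators of later lineages. None of 7 two-cell stage genes and none of 12 genes with constant expression was an OSN target, and these counts allow up to 35.4% and 24.2% by the upper Wilson limit. The lists were chosen with earlier results of these data known, and they hold genes long known for binding by these factors, so their counts are a description.

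Counting instead genes whose start lay within 50 kb of an OSN site (1412 genes, 6.31% of all) changed the counts and the order of the lists. By that rule 1 of the 3 core genes, 7 of 13 naive genes, 12 of 17 pathway genes, 9 of 18 chromatin and RNA regulators, 3 of 19 lineage regulators and none of the other two lists were counted. Sox2, Klf4 and Esrrb, whose OSN sites were more distant, were among the genes no longer counted. Dppa5a and Trim28 were counted although they were the closest gene of no OSN site.

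**Figure D4:**
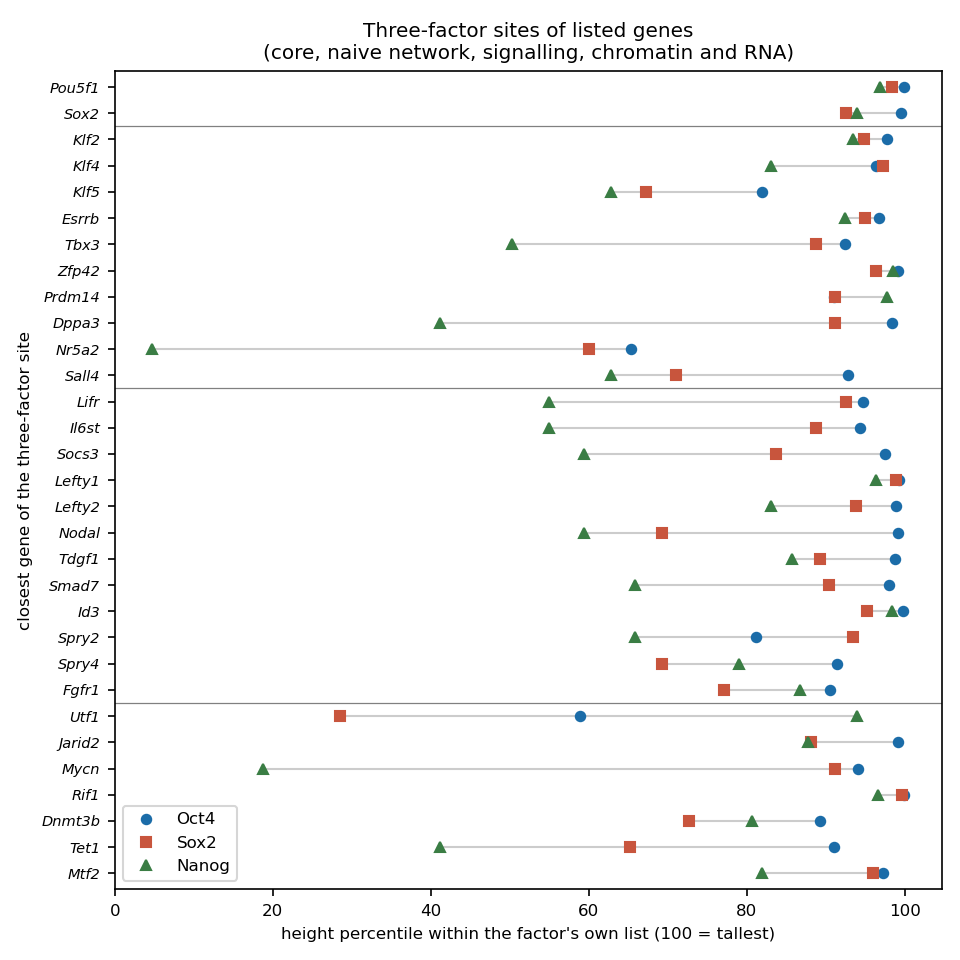
Height percentile of the Oct4, Sox2 and Nanog summits, each within its own list (horizontal axis, 100 is the tallest), at 1 OSN site of each listed target gene (rows), the site with the largest lowest-of-3 percentile. Oct4 points range from 58.9 at Utf1 to 99.9 at Pou5f1, and Nanog points from 4.69 at Nr5a2 to 98.5 at Zfp42.

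Of the core genes, Pou5f1 had an OSN site 1979 bp upstream of its start, with heights of 157 for Oct4, 103 for Sox2 and 56 for Nanog. Nearer the start, at 930 bp, lay an Oct4+Nanog site of heights 95 and 84, where the Nanog summit was taller than at the OSN site. Sox2 had 17 sites, 3 of them OSN and grouped between 106856 and 111489 bp downstream, the tallest with heights of 134, 56 and 48. Nanog had no OSN site: an Oct4+Sox2 site of heights 116 and 49 lay 63 bp from its start, and no Nanog summit had the Nanog gene as its closest gene. The sites of Pou5f1, Sox2 and Nanog whose heights are given here lay in H3K4me3 domains.

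In the naive network, the Kruppel-like factor gene Klf2 had OSN sites at 2783 bp (129, 70 and 29 for Oct4, Sox2 and Nanog, in this order here and below) and at 15446 bp (107, 66 and 47). Klf4 had one at 56907 bp (97, 85 and 34), and Klf5 had them at 211640 bp (61, 28 and 24) and 26164 bp (51, 21 and 14). Esrrb, an orphan nuclear receptor, had 3 in its introns, the one with the tallest Oct4 summit at 119, 53 and 26. Zfp42 had heights of 126, 76 and 68, Prdm14, a repressor of lineage genes, of 78, 52 and 61 and Dppa3, a maternal factor that guards DNA methylation, of 114, 52 and 19. The zinc-finger gene Sall4 had one of 83, 30 and 24 and the T-box gene Tbx3 one of 82, 47 and 21. Of the 10 sites plotted for this list, that of Nr5a2, a nuclear receptor gene, had the lowest heights for all 3 factors (45, 25 and 12). Nr0b1, Tcl1 and Fgf4 were the 3 without an OSN site, although all 3 had Oct4+Sox2 sites. Each of the 10 sites in the plot of listed genes lay in an H3K4me3 domain, and H3K27me3 was present at Tbx3 and Dppa3.

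In the signalling lists, the LIF receptor genes Lifr and Il6st had OSN sites at 12612 and 12450 bp with heights of 89, 56 and 22 and of 88, 47 and 22. Socs3, the feedback inhibitor of that pathway, had one of 104, 40 and 23, whereas Stat3, its transcription factor, had no site of any class. In the Nodal pathway the ligand gene Nodal (124, 29 and 23), the co-receptor gene Tdgf1 (118, 48 and 36) and the inhibitors Lefty1 (127, 125 and 54), Lefty2 (120, 60 and 34) and Smad7 (109, 50 and 25) had one, but Skil, a corepressor of Smad proteins, did not. Of the BMP target genes, Id3 had one of the tallest (142, 69 and 66) and Id1 none, and the ligand gene Bmp4 had none. In the FGF pathway the receptor gene Fgfr1 (77, 34 and 37) and the inhibitors Spry2 (60, 59 and 25) and Spry4 (79, 29 and 31) had OSN sites, but Dusp6 did not. Only the Fgfr1 site of these lay outside H3K4me3.

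Among chromatin regulators, Jarid2, a subunit of Polycomb complex 2, had 4 OSN sites, the most of any gene in the genome. Of these 4, 3 were single copy, the same number as at Sox2, Esrrb, Otx2 and Smad7. Mtf2, another such subunit, had 1 OSN site (102, 73 and 33). Rif1, a regulator of replication timing and DNA repair, had the tallest of those plotted for this list and the only one at a promoter, 594 bp from its start (150, 175 and 55). The DNA methyltransferase gene Dnmt3b (74, 31 and 32) and the 5-methylcytosine oxidase gene Tet1 (78, 27 and 19) had 1 each. Among lineage regulators, the best-ranked OSN sites at Foxa2 (85, 43 and 29), Eomes (75, 46 and 44), Otx2 (70, 36 and 52) and Msx2 (65, 50 and 32) all lay in H3K27me3 domains. This was so for 2 of the 10 such sites in the naive list and for 35.7% of all OSN sites, and these domains covered 36.1% of the genome. The lineage count rests on 4 sites, 1 chosen for each gene. Of all genes, 967 had 1 OSN site, 132 had 2 and 23 had 3. Of the genes with 3, those with the most sites of any class were Sox2 with 17, the Kruppel-like factor gene Klf9 with 15 and Gm13235 with 14.

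OSN sites lay mostly away from promoters. Only 36 of 1304 (2.76%, 2.00 to 3.80) were within 1 kb of the start of a coding gene, 22.5% were at 1 to 10 kb, 50.7% at 10 to 100 kb and 24.1% farther. By annotation 59.7% were intergenic, 36.0% intronic and 1.53% exonic. Sox2-only sites had the opposite position, with 31.1% at promoters (29.1 to 33.2) and a median distance of 8.12 kb, against 32.7 kb for OSN sites. Promoter shares were 10.1% at Oct4+Sox2, 2.65% at Oct4+Nanog, 5.99% at Oct4-only and 3.29% at Nanog-only sites, and promoters made up 1.59% of the genome. The difference between OSN sites and all sites of 1 factor was -7.23 points (-8.18 to -6.07) and -11.8 points (-13.0 to -10.4) in single-copy sites. Within 5 groups of Oct4 height it was -1.18 points against Oct4-only sites (-2.39 to 0.031), and -2.08 in single-copy sites (-3.55 to -0.601).

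H3K4me3, the mark of active promoters and of many enhancers at lower levels, covered 8.14% of the genome and 55.6% of OSN sites (52.9 to 58.3). Oct4+Sox2 sites had 55.3%, Oct4+Nanog 46.3%, Sox2+Nanog 47.7%, Oct4-only 32.4%, Sox2-only 62.8% and Nanog-only 35.5%. OSN sites exceeded all sites of 1 factor by 18.1 points (15.2 to 20.9), but in single-copy sites only by 1.73 (-1.34 to 4.76), where 51.1% of Oct4-only and 70.4% of Sox2-only sites had the mark. In single-copy sites and within groups of Oct4 height, the difference from Oct4-only sites was 3.01 points (-0.799 to 6.82), an interval that holds 0. Only 36 OSN sites were within 1 kb of a start, so most of the 725 in H3K4me3 domains lay farther away. Whether the domain at such a site also covered a promoter was not tested.

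H3K27me3, the Polycomb mark, was less frequent at Oct4+Sox2 sites than at OSN sites, whose share was near that of the genome. It covered 35.7% of OSN (33.1 to 38.3), 36.4% of Oct4+Nanog, 31.5% of Sox2+Nanog and 24.8% of Oct4+Sox2 sites (22.9 to 26.9), against 36.1% of the genome. The difference of OSN minus Oct4+Sox2 sites was 10.8 points (7.57 to 14.1), and 11.3 in single-copy sites (7.82 to 14.8). Against sites of 1 factor it was 4.27 points (1.58 to 7.04), 8.18 in single-copy sites (5.27 to 11.2) and 8.95 in single-copy sites against Oct4-only sites of like Oct4 height (5.33 to 12.6). Sites with both H3K4me3 and H3K27me3 made up 15.1% of OSN, 12.1% of Oct4+Sox2, 7.88% of Oct4-only and 19.5% of Sox2-only sites.

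H3K9me3 covered 37.2% of the genome and 40.9% of OSN sites, and 41.6% of sites of 1 factor. That difference was -0.71 points (-3.50 to 2.13), but 6.20 in single-copy sites (3.23 to 9.23), where the repeats described above were left out, and 3.49 against Oct4-only sites within groups of Oct4 height (0.122 to 6.86). Sites with none of the 3 marks were 14.5% of OSN and 26.2% of sites of 1 factor, and 12.7% and 20.8% in single-copy sites. Uhrf1 windows held 3.07% of OSN, 14.1% of Oct4-only and 24.6% of Nanog-only sites, but 1.19%, 0.766% and 3.22% of the single-copy ones. Uhrf1 at sites of 1 factor was thus measured mainly in repeated DNA, where reads were placed at 1 of several copies.

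**Figure D5:**
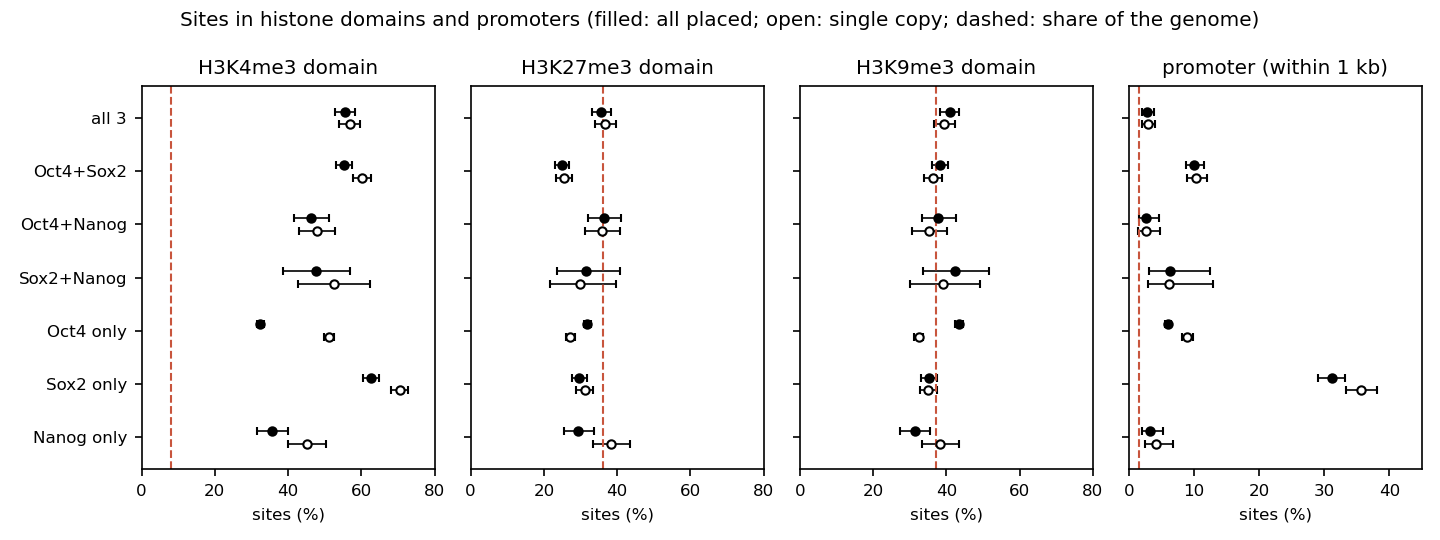
Share of sites of each class (percent, bars are Wilson 95% intervals) in H3K4me3, H3K27me3 and H3K9me3 domains and at promoters, for all placed sites (filled) and single-copy sites (open), with the share of the genome as a dashed line. H3K4me3 at Oct4-only sites moves from 32.4% to 51.1% when repeats are left out, and promoters hold 31.1% of Sox2-only but 2.76% of OSN sites.

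The promoters of OSN target genes were more often bivalent, with both H3K4me3 and H3K27me3 near the start. This was so for 330 of 1123 OSN targets (29.4%, 26.8 to 32.1), for 24.7% of targets of other sites only (23.6 to 25.7) and for 14.9% of genes without a site (14.4 to 15.5). Promoters with H3K4me3 alone made up 46.3%, 43.0% and 45.5%, and unmarked ones 11.1%, 17.8% and 22.0%.

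Motifs were searched in the 200 bp window on both strands, and each share is given beside that of all 12791934 windows of the genome of the same length. The joint Sox-octamer element with at most 2 mismatches (0.293% of genome windows) was in 5.29% of OSN windows (4.20 to 6.64), 9.46% of Oct4+Sox2 (8.20 to 10.9), 4.34% of Oct4+Nanog, 3.33% of Oct4-only, 0.582% of Sox2-only and 0.616% of Nanog-only windows. It was in none of 111 Sox2+Nanog windows, which allows up to 3.34%. OSN windows thus held it less often than Oct4+Sox2 windows, by 4.17 points (-5.96 to -2.32 as OSN minus Oct4+Sox2). In single-copy sites OSN and Oct4-only windows differed by 0.11 points (-1.26 to 1.72). With 3 mismatches allowed (3.32% of genome windows) the shares were 24.6% of OSN, 30.1% of Oct4+Sox2, 17.6% of Oct4-only and 3.86% of Sox2-only windows. The element contains the Sox and octamer motifs, so these counts overlap.

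Motifs of a single factor followed the class in part. The octamer ATGCAAAT (1.73% of genome windows) was in 7.44% of OSN, 10.4% of Oct4+Sox2, 9.40% of Oct4+Nanog and 10.6% of Oct4-only windows, but in 1.11% of Sox2-only windows. The Sox motif CATTGT (12.6%) was in 24.8% of OSN (22.5 to 27.2), 23.4% of Sox2+Nanog, 20.2% of Oct4+Sox2, 15.1% of Sox2-only and 10.5% of Oct4-only windows. The Nanog motif CCATTA (8.65%) was more frequent than in the genome in 3 of the 4 classes with Nanog, at 19.5% of Oct4+Nanog, 16.4% of Nanog-only and 12.2% of OSN windows (10.5 to 14.1). At Sox2+Nanog sites it was in 9.01% (4.97 to 15.8), an interval that holds the genome share, and it was in 5.25% of Oct4+Sox2 windows. OSN minus Oct4+Sox2 was 6.94 points for it (4.94 to 9.05) and 7.12 in single-copy sites (4.88 to 9.44).

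Motifs of other factors were searched too. AAGGTCA, bound by Esrrb (3.73% of genome windows), was in 11.5% of OSN, 10.2% of Oct4+Sox2, 13.5% of Oct4+Nanog and 6.09% of Sox2-only windows. GGGTGTGG of Kruppel-like factors (1.19%) was in 2.76% of OSN and 4.48% of Oct4+Sox2 windows. TTCCNGGAA of Stat3 (0.503%) was in 0.844% and 2.24%, and AGGTGGCA, a part of the CTCF motif (0.768%), in 1.23% and 1.86%. CACGTG, bound by Myc (1.95%), was in 0.460% of OSN but 4.39% of Sox2-only windows. G+C content differed alongside, with a median of 47.0% in OSN and 57.0% in Sox2-only windows, of which 13.5% and 56.4% held at least 5 CpG.

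The joint element went with Oct4 height in 3 of the 4 classes with Oct4. At OSN sites with it (69 windows, at most 2 mismatches) the median Oct4 height was 89, against 70 without it. The medians were 62 and 49 at Oct4+Sox2 sites and 44 and 32 at Oct4-only sites, but 51 and 50 at Oct4+Nanog sites (18 windows with it). Nanog heights at OSN sites were 20 with and 23 without the element. In the tallest of 5 groups of Oct4 height it was in 7.22% of OSN, 14.6% of Oct4+Sox2 and 8.44% of Oct4-only windows, and in the lowest in none of 9, 0.893% and 0.332%. At Oct4+Nanog sites it was in 4.93% of the tallest group, 7.84% of the second lowest and none of 11 windows of the lowest. In 5 groups of single-copy sites, the tallest had it in 8.22% of OSN, 16.4% of Oct4+Sox2 and 9.65% of Oct4-only windows. The lowest had it in 3.33% (1 of 30), 2.79% and 2.30%. At single-copy Oct4+Nanog sites the shares were 6.52% and 2.08%. The median heights at single-copy Oct4-only sites were 44 with and 37 without the element.

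At the few sites whose window held the element, most Oct4 summits lay close to it. The element was searched for only in the 200 bp window of the site, so closeness is partly set in advance. At the 69 OSN sites the Oct4 summit was within 25 bp of the element's centre at 72.5% (61.0 to 81.6), the Sox2 summit at 56.5% and the Nanog summit at 50.7%. At 292 single-copy Oct4-only sites with the element the share was 82.2% (77.4 to 86.2). The Sox2 summit was on the Sox side of the Oct4 summit at 38 of the 69 sites, on the octamer side at 30 and at the same base at 1, so the order of the summits did not follow that of the motifs beyond counting error (55.9%, 44.1 to 67.1).

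Sites of 1 factor formed the longest runs. With sites joined up to 10 kb apart, the largest run, on chromosome 8 from 19937600 to 20037580, held 53 sites, of which 50 were Nanog only and 52 repeated. In single-copy DNA the largest were at Sfi1 (21 sites, 17 of them Nanog only), in the Hoxb cluster (11 sites, closest to Hoxb4) and at Otx1 (10 sites). None of the 5 largest runs over all sites held an OSN site. OSN sites were in a run of at least 2 sites at 37.3% and sites of 1 factor at 37.1%, a difference of 0.242 points (-2.48 to 3.04), which holds 0. In single-copy sites the difference was -3.05 points (-5.96 to -0.050), which leaves out 0. Single-copy runs with 3 OSN sites, the most in any run, were closest to Ddit4, Fam134b, Glod5, Gjc1 and Sox2.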

How the data were processed

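ChIP-seq libraries for Oct4, Sox2 and Nanog in WT mESC were analysed, with 1 library each, beside the WT mESC lists of H3K4me3, H3K27me3, H3K9me3 and Uhrf1. The 8 input samples were not used here. Per the submitters' processing notes, the authors mapped reads to mm9 with Bowtie2 2.1.0 and called summits with MACS. Local alignment was used and 1 alignment per read was kept. The deposited signal of a summit is the number of fragments piled up there, given in whole numbers, and its scaling to depth is not given in the sources used here. The authors called histone domains with RSEG against input, and deposited for each domain a signal, the mean number of reads in its bins, and a score, which is larger for longer domains. The score was used only to rank domains within a list. The Uhrf1 list holds 10 kb windows with no score. None of the summits or domains reached past a chromosome end of NCBIM37.

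Summits within 100 bp were joined by single linkage, and a site was described by its midpoint and a 200 bp window. A site was counted in a domain that included its midpoint. Genes were the 22380 protein-coding genes of the GENCODE annotation of that build, and a promoter was 1 kb either side of a start. Copies were counted from 31-base words on both strands. Shares have Wilson and differences Newcombe 95% intervals, except for those within 5 groups of Oct4 height. These were weighted by the number of OSN sites and have normal-approximation 95% intervals. Brackets of height ratios set the lower limit of the OSN median over the upper limit of the other median, and the reverse. With 1 library per group there was no replicate test and no p-value is given. Python 3.11.15, numpy 2.4.6, pandas 2.3.3, scipy 1.17.1, numba 0.67.0, pysam 0.24.0 and matplotlib 3.10.9 were used, and joining, copy counts and motif search were tested on simulated data.

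Sites were named by a rule: the best-ranked sites of each class and, for each listed gene, the OSN site with the largest lowest-of-3 height percentile. Other named sites are given as examples. A pair of the best-ranked OSN sites is not reported here. The members and lists were chosen with earlier results of these data known. The alternatives were joining at 50 and 500 bp, every pair within 100 bp, summits above the median height, lists of equal number, domains above the median score, promoters of 5 kb, targets within 50 kb and 1 mismatch. Single-copy sites, groups of Oct4 height and 3 mismatches were added after the data were seen.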

Additional observations from a re-analysis of the deposited data

How the results depend on the processing

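With 1 library per factor, leaving out a replicate was not possible. No paired analysis was possible because each group has 1 library and no result comes from a test. Of 72 alternative values for 16 results, 20 moved by less than their counting interval or by less than 1.5 times, 51 moved further and 1 turned the direction of a difference whose 95% interval left out 0. Among those that moved further, the H3K9me3 difference, -0.71 points with an interval that holds 0, changed sign with summits above the median height, in single-copy sites and within groups of Oct4 height. Where not stated otherwise, the cause was not tested.

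Joining at 50 bp gave shares of 18.8% for Oct4 summits with Sox2 and 10.2% with Nanog, 46.7% for Sox2 summits with Oct4 and 20.1% with Nanog, and 55.2% for Nanog summits with Oct4 and 43.7% with Sox2. Joining at 500 bp gave 27.8%, 15.0%, 69.0%, 30.02%, 81.3% and 65.5% in that order. Both follow from the distance alone. With summits above the median height the shares that moved were 29.8% (Oct4 with Sox2), 74.7% (Sox2 with Oct4), 28.9% (Sox2 with Nanog), 73.4% (Nanog with Oct4) and 63.1% (Nanog with Sox2), and the number of OSN sites was 658. Lists of 2390 summits each gave 53.3% for Oct4 with Sox2 and for Sox2 with Oct4, 39.0% for Oct4 with Nanog and for Nanog with Oct4, 46.6% for Sox2 with Nanog and for Nanog with Sox2, and 766 OSN sites. Height ratios of OSN to sites of 1 factor were then 1.25 for Oct4, 1.5 for Sox2 and 1.53 for Nanog. Single-copy sites, added after the data were seen, gave 32.9%, 18.4%, 61.7%, 28.4%, 75.1% and 61.9% in the order above and an Oct4 height ratio of 1.87.

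For OSN minus sites of 1 factor, domains above the median score changed the H3K4me3 difference to 8.92 points and that of H3K9me3 to -3.68. With summits above the median height H3K27me3 was 12.5, H3K9me3 5.22 and the promoter share -0.989 points (-2.28 to 0.770). Promoters of 5 kb gave -4.96 points. In single-copy sites H3K4me3 was 1.73, H3K27me3 8.18, H3K9me3 6.20 and the promoter share -11.8 points. Within groups of Oct4 height, against Oct4-only sites, they were 10.01, 8.80, 3.49 and -1.18 points. The joint Sox-octamer element turned its direction with summits above the median height (-1.77 points, -3.19 to 0.122, against 2.52), was 0.052 points with 1 mismatch and 9.80 with 3.

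Single libraries limit every value here: a library that worked less well gives a shorter list and lower shares, and this cannot be told apart from fewer bound sites. Height was measured in each library on its own scale. Motif matches are letters in a window, not bound sites.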

Other observations

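The WT classes also differed in how often they met summits in the lists of Uhrf1 KO mESC, which held 576 summits for Oct4, 20755 for Sox2 and 10632 for Nanog. Of WT OSN sites, 93.0% had a KO Sox2 summit within 100 bp (91.5 to 94.3), 93.8% a KO Nanog summit (92.4 to 94.99) and 12.9% a KO Oct4 summit (11.2 to 14.8). Of WT Oct4+Sox2 sites, which by definition had no Nanog summit in WT, 49.5% had a KO Nanog summit (47.2 to 51.8) and 80.3% a KO Sox2 summit. Oct4-only sites had a KO Sox2 summit at 32.8%, a KO Nanog summit at 19.3% and a KO Oct4 summit at 0.214%. The KO lists differ in length and each is from 1 library, and the part of list length in these shares was not tested.

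Nanog-only sites, which by definition had no Oct4 summit in WT, had a KO Oct4 summit at 14.8% (12.03 to 17.97), beside 12.9% of OSN sites, but at 2.34% in single-copy sites (1.19 to 4.55), where OSN sites had 10.8%.

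OSN sites were most frequent per length on chromosome 11, at 0.829 per Mb, and least frequent on chromosomes X and Y, at 0.222 and 0.063 per Mb. Placed sites of all classes together went the same way. Chromosome 11 held 9.09% of them on 4.59% of the length, and chromosome X 3.53% on 6.28%. The value for Y is 1 OSN site, and all 7 sites there were repeated. Read coverage by chromosome was not tested.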
